A study of Rattus norvegicus with 4 samples.

Results

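The 5 muscle-enriched microRNAs (miRNAs) rno-miR-1, rno-miR-133a, rno-miR-133b, rno-miR-206 and rno-miR-499, below written without the prefix for the rat, were taken by name from the 350 rat miRNAs on each array, and all 5 were found. Names ending in an asterisk, which mark the other strand of a hairpin, were not taken. Male Sprague-Dawley rats gave the tissue, gracilis muscle from the thigh, with 2 sham-operated samples and 2 samples after 4 h of ischemia followed by reperfusion (called ischemia-reperfusion replicates 1 and 2). The sample labels give 4 h of reperfusion, whereas the text for the series gives 24 h, so the time of reperfusion is not settled. Age is not given in the sources used here, nor whether a sample came from 1 animal or from a pool. There was 1 array per sample, read in 1 colour (Cy3).

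These miRNAs are transcribed in muscle under the control of myogenic transcription factors and act by pairing of the seed, bases 2 to 8 of the mature strand, with messenger RNAs. In rodents miR-1 promotes differentiation of myoblasts, miR-133a and miR-133b restrain serum response factor and influence myoblast proliferation, and miR-206 is the skeletal muscle relative of miR-1 that acts in regeneration and at the neuromuscular junction. miR-499 lies in a gene of the myosin heavy chain family and takes part in the slow fibre programme.

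The sequences show which of the 5 can act on the same seed matches and how little separates some of them. They are from RefSeq (build GRCr8), 5′ to 3′, with the seed in capitals. The array names carry no arm, and the arm shown is the one the older name stands for.
miR-1: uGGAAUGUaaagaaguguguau
miR-206: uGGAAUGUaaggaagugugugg
miR-133a: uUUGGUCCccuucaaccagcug
miR-133b: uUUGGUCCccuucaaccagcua
miR-499: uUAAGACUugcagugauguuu

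miR-1 and miR-206 share the seed GGAAUGU and 19 of 22 bases, with the differences A11G, A21G and U22G (the base of miR-1, the position from the 5′ end, the base of miR-206). miR-133a and miR-133b share the seed UUGGUCC and 21 of 22 bases, and differ by G22A alone. Probes for such pairs may cross-hybridise, so the values of miR-133a and miR-133b may not be fully separate, nor those of miR-1 and miR-206. The seed of miR-499, UAAGACU, belongs to no other mature rat miRNA of the RefSeq table. The table holds 1 further miRNA with the seed of miR-1, miR-1b, which differs from miR-1 by G17A and has no feature of its own on the array.

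In the genome (GRCr8), 4 of the 5 lie in pairs that mix the seeds. miR-1 (chr18:2160339-2160360, minus strand) lies beside miR-133a (chr18:2157886-2157907, minus strand), with 2368 bases between the hairpins. miR-206 (chr9:30590747-30590768, plus strand) and miR-133b (chr9:30594629-30594650, plus strand) are neighbours in the same way, with hairpins 3801 bases apart. miR-499 (chr3:164570616-164570636, plus strand) lies within Myh7b, a myosin heavy chain gene annotated at chr3:164537211-164582441.

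The arrays differed in ways that the groups do not follow, and these bear on each value below. Detected were 158 and 187 miRNAs on the sham arrays, 174 on ischemia-reperfusion replicate 1 and 121 on replicate 2. The 75th percentile of signal, over the 78 miRNAs detected on all 4 arrays, was 3380, 1171, 995 and 92.0 units in that order. Ischemia-reperfusion replicate 1 resembled sham replicate 2: the SD of log2 ratios over 171 miRNAs detected on both was 0.27, against 1.33 over 145 miRNAs between the sham arrays. Among the 163 miRNAs undetected on sham replicate 2, only miR-205 and miR-200c, both epithelial miRNAs, exceeded 100 units on ischemia-reperfusion replicate 1, and the next highest, miR-340-5p, gave 7.07 units. These 2 signals also differ in form from all others deposited. Of 1488 signals in the 4 scanner files they are the only 2 written with more than 6 digits. Their scanner errors (2.50 and 2.47 units) are 1.11% and 2.02% of the signal, whereas the lowest for any other detected miRNA on that array was 6.02%. The sources used here do not say how these 2 values were made, and no statement on the 5 muscle miRNAs rests on them. The signals of the 5 have at most 6 digits, and where detected their errors are between 7.22% and 9.40% of the signal.

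All 5 muscle miRNAs were detected on 3 arrays, those of sham replicates 1 and 2 and of ischemia-reperfusion replicate 1. On ischemia-reperfusion replicate 2 the count was 0 of 5. Signals are background-subtracted intensities in the scanner's units, given with the scanner software's error, which covers the measurement on 1 array and not the spread between animals.

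miR-1 gave 90039 ± 6574 units in sham replicate 1, 8359 ± 613 in sham replicate 2, 6891 ± 508 in ischemia-reperfusion replicate 1 and 1.02 ± 2.52 in replicate 2. The sham replicates thus lay further apart than sham replicate 2 and ischemia-reperfusion replicate 1. miR-206, which shares its seed, gave 12946 ± 954 and 6144 ± 444 units in sham muscle, 4874 ± 353 in ischemia-reperfusion replicate 1 and 8.10 ± 2.64 in replicate 2. The last of these is the highest signal of the 5 on that array, at 3.07 times its error, and it is flagged as not detected. On that array 7 other undetected miRNAs gave a higher signal and 17 detected miRNAs a lower one, so the signal alone does not set the flag.

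miR-133b gave 102374 ± 8185 and 94649 ± 7127 units in sham muscle, 75842 ± 5736 in ischemia-reperfusion replicate 1 and 1.93 ± 2.44 in replicate 2. miR-133a gave 5853 ± 532 and 3798 ± 356 units in sham muscle, 2983 ± 280 in ischemia-reperfusion replicate 1 and −1.49 ± 2.52 in replicate 2. Over the first 3 arrays the unscaled signals of miR-133b spanned 1.35-fold and those of miR-133a 1.96-fold, the smallest spans of the 5. After the scaling described below the smallest was that of miR-206 (1.37-fold), and miR-133b spanned 2.67-fold. miR-499 gave 721 ± 57.2 and 122 ± 9.45 units in sham muscle, 112 ± 8.80 in ischemia-reperfusion replicate 1 and 0.540 ± 2.51 in replicate 2. Its sham signals, like those of miR-1, stood well apart.

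**Figure D1:**
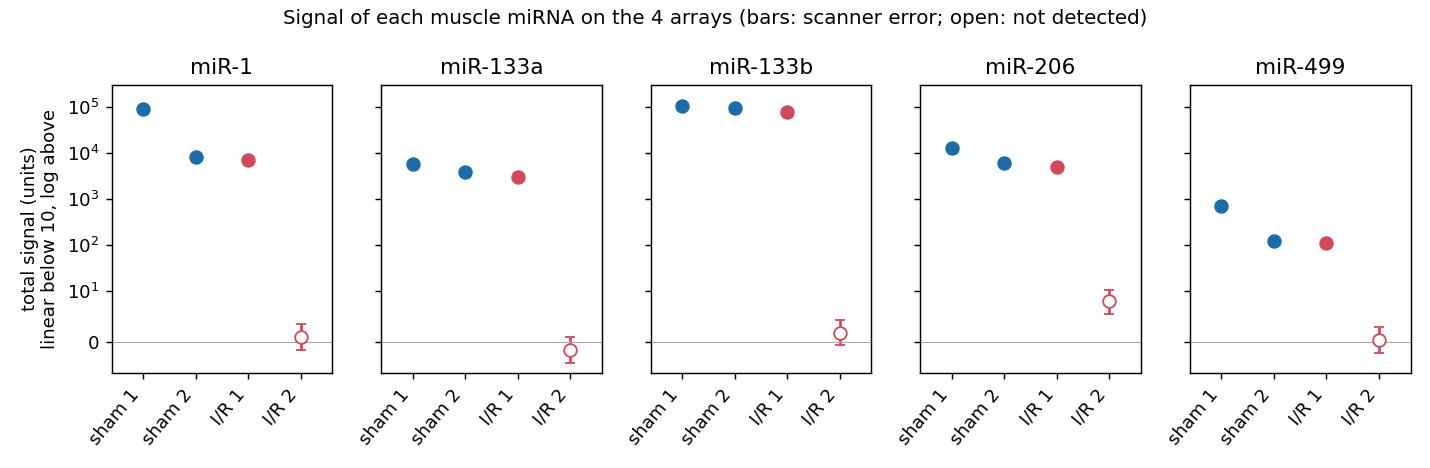
Total signal (units, vertical axis, linear below 10 and logarithmic above) of the 5 muscle miRNAs on the 4 arrays; I/R is ischemia-reperfusion, bars are the scanner error and open points are not detected. The first 3 arrays lie between 112 units (miR-499) and 102374 units (miR-133b), and ischemia-reperfusion replicate 2 lies between −1.49 and 8.10 units.

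Before scaling, both ischemia-reperfusion arrays lay below both sham arrays for 5 of the 5, and the same held for 76.7% of all 159 miRNAs tested. To take out array brightness, signals were divided by the 75th percentile of their array. The order of the first 3 arrays then differed between members. Scaled miR-1 was highest in sham replicate 1 (26.6 times the percentile), against 7.14 in sham replicate 2 and 6.92 in ischemia-reperfusion replicate 1. Scaled miR-499 had the same highest array, with 0.213 against 0.104 and 0.113. The other 3 had their lowest of the 3 values in sham replicate 1. Scaled miR-133b was 30.3 there, 80.8 in sham replicate 2 and 76.2 in ischemia-reperfusion replicate 1. Scaled miR-133a was 1.73, 3.24 and 2.997, and scaled miR-206 was 3.83, 5.25 and 4.90. For all 5, sham replicate 2 and ischemia-reperfusion replicate 1 were neighbours in this order and differed by at most 0.12 on the log2 scale, less than the scanner error of each difference (0.15 to 0.19). All 5 were lowest in ischemia-reperfusion replicate 2, where only a bound can be given.

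Against ischemia-reperfusion replicate 2, with an undetected signal placed at the lowest detected signal of its array or at its own where higher, the scaled signal of miR-133b in ischemia-reperfusion replicate 1 was at least 3407-fold higher. The limit was at least 310-fold for miR-1, 134-fold for miR-133a, 55.6-fold for miR-206 and 5.04-fold for miR-499. These are differences between 2 arrays of the same labelled group. miR-499, with the lowest signal on the first 3 arrays, has the lowest limit. The limits are approximate, since the highest undetected signal on that array (9.15 units) lay above the lowest detected one (2.06 units).

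The comparison of the study asks which miRNAs differ between ischemia-reperfusion and sham muscle. None of the 5 passed limma's moderated test with Benjamini-Hochberg adjustment over all tested miRNAs at 0.05, and 0% of the 159 tested did. At an unadjusted p under 0.05 limma called none of the 5 and 1.26% of the 159, which are the 2 values of unusual form described above. The log2 difference, ischemia-reperfusion minus sham, was −5.64 ± 3.14 (SE, n = 2 per group) for miR-1. It was −5.29 ± 3.88 for miR-133b and −5.11 ± 3.58 for miR-133a, and these 3 were the lowest of the 159. miR-206 differed by −2.77 ± 2.05 and miR-499 by −2.53 ± 1.65. The limma adjusted p was 0.817 for each of the 5. Since none of the 5 was detected on ischemia-reperfusion replicate 2, the sizes depend on how undetected signals are treated. There miR-133a was raised to the floor, the lowest detected scaled signal of any array. miR-1, miR-133b, miR-206 and miR-499 lay above that floor and kept their own undetected signals. With such signals at the limit of their own array, the log2 difference of miR-1 was −5.13, that of miR-133b −5.24, that of miR-133a −3.19, that of miR-206 −2.77 and that of miR-499 −1.57, with a limma adjusted p of 0.848 each. The median difference of the 5 was −5.11, beside 0.45 over all 159. With 2 arrays per group an exact permutation test of a single miRNA cannot give a two-sided p below 0.333. Both ischemia-reperfusion arrays lay below both sham arrays for 1 of the 5, miR-1, beside 13.2% of the 159, and for miR-1 the 2 nearest arrays differed by less than their scanner error.

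These differences depend on which ischemia-reperfusion array is used. Without ischemia-reperfusion replicate 2 the log2 differences were −0.99 for miR-1, −0.40 for miR-499, 0.13 for miR-206, 0.34 for miR-133a and 0.62 for miR-133b, with a limma adjusted p of 0.990 each, and the median of the 5 was 0.13 beside 0.06 over all 159. Without ischemia-reperfusion replicate 1, where the remaining array is assumed to vary as the sham arrays do, limma called 4 of the 5 lower, beside 5.66% of the 159. They were miR-133b (−11.20), miR-133a (−10.56), miR-1 (−10.28) and miR-206 (−5.67), with adjusted p-values of 0.0445, 0.0445, 0.0482 and 0.0482, while miR-499 (−4.67) had 0.0944. Of these 4, only miR-133a was raised to the floor on the remaining array. The undetected signals of miR-133b and miR-1 were kept, above the floor and below the lowest detected signal of that array. That of miR-206 lay above both, so its difference was the same under either treatment. The calls still depended on how undetected signals were treated over all tested miRNAs. With undetected signals at the limit of their own array they ended: limma called 0 of 159, the differences were −11.11, −6.73, −9.27 and −5.67 in the same order, and the adjusted p-values were 0.0619 for miR-133b and 0.0659 for the other 3. With unscaled signals 2 of the 5 passed, miR-1 (−7.93) and miR-133b (−8.01), with a limma adjusted p of 0.0189 each, beside 1.26% of the 159. In that fit limma gave each of the 5 the same pooled SE, 2.13, which does not follow the spread of the single miRNA. There the median of all tested differences also moved, from 0.45 to −2.18.

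**Figure D2:**
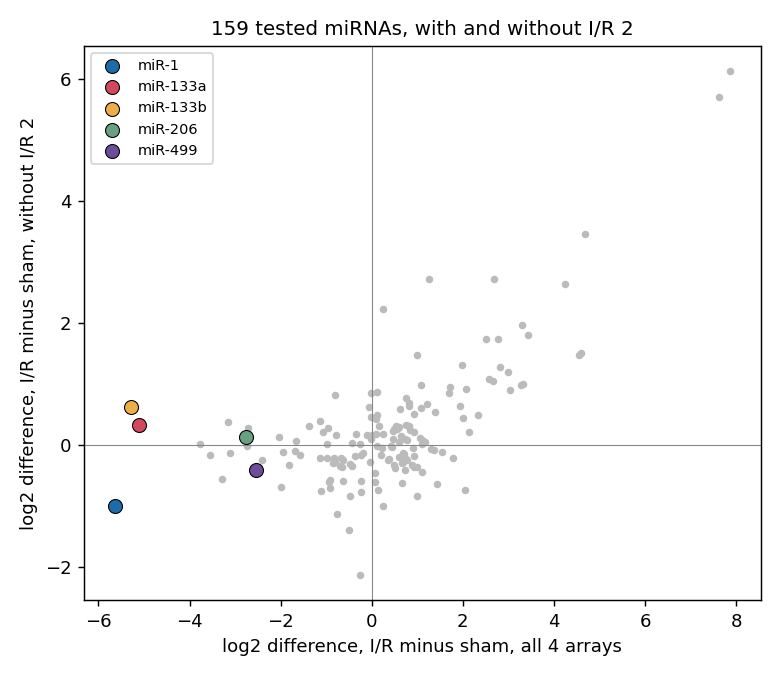
Log2 difference, ischemia-reperfusion (I/R) minus sham, of 159 tested miRNAs with all 4 arrays (horizontal axis) and without ischemia-reperfusion replicate 2 (vertical axis). The 5 muscle miRNAs lie between −5.64 and −2.53 on the horizontal axis and between −0.99 and 0.62 on the vertical axis.

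Ratios between 2 of the miRNAs on the same array do not change when the array is scaled by 1 factor. The value of such a ratio depends on the probes, so only its change between arrays is described, over 10 pairs and the 3 arrays with signal. The ratios of ischemia-reperfusion replicate 1 matched those of sham replicate 2 more closely than the sham replicates matched each other. Between ischemia-reperfusion replicate 1 and sham replicate 2 the ratios differed by 0.01 to 0.23 on the log2 scale, and in 0 of 10 pairs by more than 2 times the scanner error. Between the sham replicates they differed by 0.45 to 3.32, and in 9 of 10 pairs by more than 2 times the scanner error.

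The ratios that differed most between the sham replicates involved miR-1 or miR-499. The signal of miR-1 over that of miR-133b was 0.880 in sham replicate 1, 0.0883 in sham replicate 2 and 0.0909 in ischemia-reperfusion replicate 1. This is a 9.96-fold difference between the sham replicates and a 1.03-fold one between the other pair of arrays. miR-499 over miR-133b changed the same way, since the inverse ratio was 142 in sham replicate 1, 778 in sham replicate 2 and 675 in ischemia-reperfusion replicate 1. Members of a seed pair or of a locus also differed in ratio between the sham replicates. Within the seed pair of miR-1 and miR-206, the ratio was 6.95, 1.36 and 1.41 in the same order of arrays. For the neighbours miR-1 and miR-133a it was 15.4, 2.20 and 2.31. The neighbours miR-133b and miR-206 gave 7.91, 15.4 and 15.6. The most even ratios were those of miR-133a to miR-206 (0.452, 0.618 and 0.612) and of miR-133a to miR-133b (0.0572, 0.0401 and 0.0393).

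For all 10 pairs the difference of ischemia-reperfusion replicate 1 from the sham mean was less than 1 SD of the sham values. The SD of 2 values exceeds the distance of either from their mean. This result therefore follows from the closeness to sham replicate 2 and is no separate evidence. A permutation test of 1 array against 2 cannot give a p below 0.333, so none was run. On ischemia-reperfusion replicate 2 no ratio can be given.

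**Figure D3:**
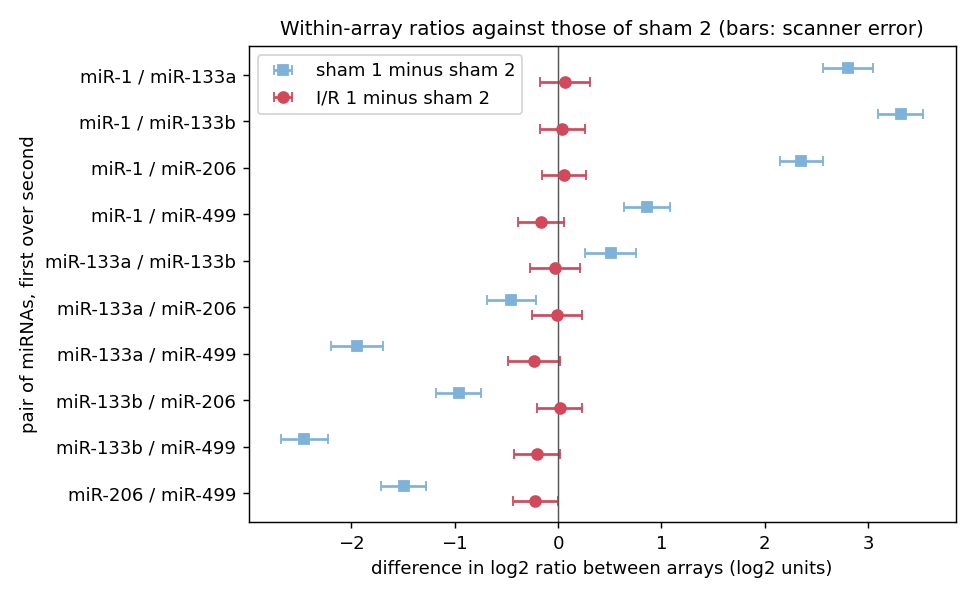
Change of the within-array log2 ratio of each of 10 pairs against its value on sham replicate 2, for sham replicate 1 (squares) and ischemia-reperfusion replicate 1 (I/R 1, circles); bars are the scanner error of the change. The squares reach 3.32 from 0 and the circles at most 0.23.

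Between the sham replicates, the signal of miR-1 was 10.8-fold higher in replicate 1, that of miR-499 5.93-fold, that of miR-206 2.11-fold, that of miR-133a 1.54-fold and that of miR-133b 1.08-fold, whereas the scaling percentile was 2.89-fold higher. Of 145 miRNAs detected on both sham arrays, 5 had a higher ratio than miR-1, 15 than miR-499, 87 than miR-206, 108 than miR-133a and 123 than miR-133b. Of the leukocyte list, miR-223 gave 164 units in sham replicate 1 and 1924 in sham replicate 2. In the same direction, miR-142-3p gave 231 and 2337 units and miR-142-5p 19.1 (not detected) and 504 units. Only miR-150 of that list went the other way, with 551 and 189 units. The endothelial miR-126 gave 4275 and 230 units. The part of these other cell types in the miR-1 difference was not tested.

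**Figure D4:**
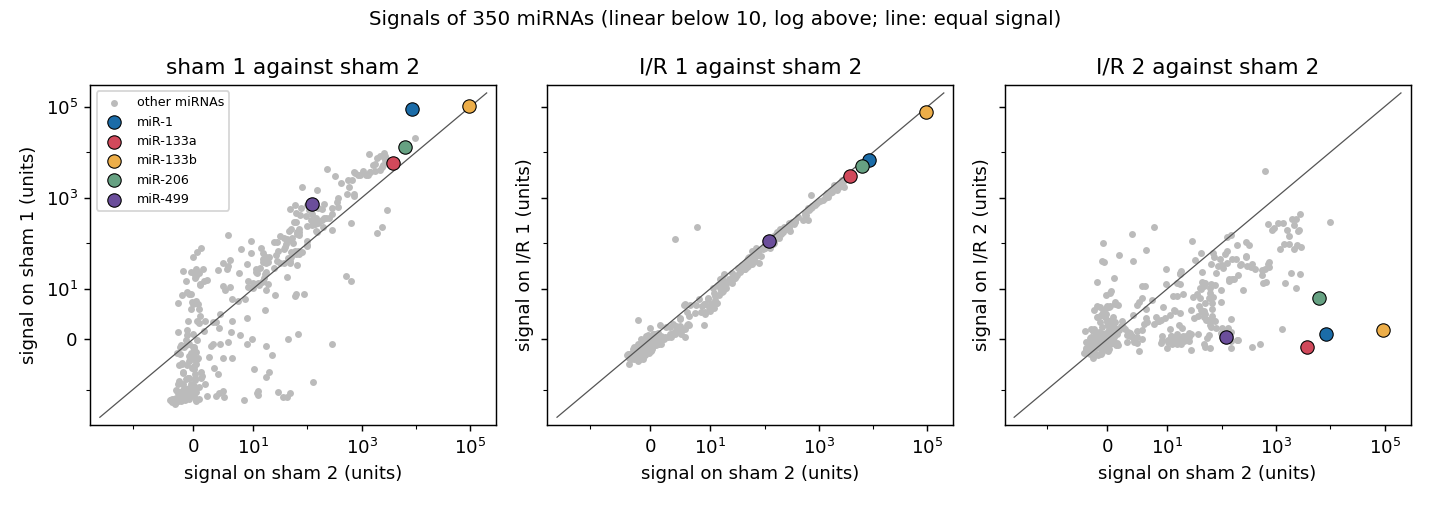
Signals (units, linear below 10 and logarithmic above) of 350 miRNAs on 3 arrays against those on sham replicate 2, with the 5 muscle miRNAs in colour; I/R is ischemia-reperfusion and the line marks equal signal. On ischemia-reperfusion replicate 1 the 5 lie at 0.785 to 0.924 times their sham replicate 2 signal, and the 2 points far above the line are miR-205 and miR-200c.

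The 5 miRNAs together held 53.9% of the signal of all detected miRNAs in sham replicate 1, 61.4% in sham replicate 2, 61.8% in ischemia-reperfusion replicate 1 and 0% in ischemia-reperfusion replicate 2. miR-133b alone made up 26.0%, 51.4% and 51.7% on the first 3 arrays, and miR-1 made up 22.9%, 4.54% and 4.70%. These are shares of fluorescence, not of molecules. In tissue RNA, fewer muscle cells and less of a miRNA per cell cannot be told apart.

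The loss of detection on ischemia-reperfusion replicate 2 was measured beside that of other bright miRNAs. Of the 20 miRNAs above 1000 units on each of the first 3 arrays, 4 were muscle miRNAs, none of which was detected on ischemia-reperfusion replicate 2, and 16 were others, of which 16 were detected. Of the 62 above 100 units on each of them, 57 were others, and 52 of these were detected. The 5 others not detected were miR-128, miR-144, miR-150, miR-378 and miR-378*. Of these, miR-378 gave 3075, 1292 and 991 units on the first 3 arrays. It thus missed the limit of 1000 units narrowly, on ischemia-reperfusion replicate 1 alone. These limits of 100 and 1000 units were chosen after the values were seen.

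Among other miRNAs listed as expressed in muscle, only miR-378 and miR-378* were detected, and they gave a like profile. Of 11 listed names 4 are on the array and 2 could be tested, miR-378 and miR-378*, the strands of a hairpin in a gene of mitochondrial metabolism (Ppargc1b in the mouse). Neither passed limma's test. miR-378 gave 3075 and 1292 units in sham muscle, 991 in ischemia-reperfusion replicate 1 and 2.08 in replicate 2. miR-378* gave 964, 365, 302 and −1.43 units in the same order. The heart miRNA miR-208 was not detected on any of the 4 arrays (−18.1 to −1.70 units), and neither was miR-1*, the other strand of miR-1 (0.490 to 15.6 units).

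The 5 miRNAs outside the group whose scaled log2 profile over the 4 arrays, each centred on its mean, lay nearest to the mean profile of the 5 were miR-378*, miR-128, miR-150, miR-101b and miR-500. The root mean square distance was 0.39 for miR-378*, 0.68 for miR-128, 0.73 for miR-150, 1.05 for miR-101b and 1.24 for miR-500. Of the muscle miRNAs themselves the nearest to this mean was miR-1, at 1.00, further than miR-378*, miR-128 and miR-150. On ischemia-reperfusion replicate 2 the 5 outside the group gave −1.43, −0.0935, −0.0748, −1.63 and −0.354 units in the order above. Their levels there are thus the floor. All of them, like the muscle miRNAs, were detected on the first 3 arrays and not on ischemia-reperfusion replicate 2, and with 4 arrays the likeness rests on that array. Without scaling, 3 of these 5 stayed among the nearest.

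Markers of other cell types also differed between the arrays. Of 10 epithelial miRNAs 0 were detected on each sham array, 2 on ischemia-reperfusion replicate 1 (miR-205 and miR-200c, the values of unusual form) and 6 on replicate 2. With signals below 0 counted as 0, as in all sums here, their summed signal was 1.58 and 17.1 units on the sham arrays, 351 on ischemia-reperfusion replicate 1 and 596 on replicate 2. miR-429, miR-182, miR-183 and miR-96 were not detected on any of the 4 arrays. On ischemia-reperfusion replicate 2, miR-205 gave 228 ± 16.9 units and miR-200c 159 ± 11.7 units. The injury-associated miR-21 gave 276 ± 212, 628 ± 45.7, 592 ± 43.4 and 3898 ± 282 units over the 4 arrays, so its value on sham replicate 1 is imprecise. The fibroblast list had 3 of 3 members detected on every array, with summed signals of 2000, 432, 340 and 229 units. The leukocyte list had 3, 4, 4 and 2 of 4 members detected, with sums of 965, 4955, 4115 and 33.0 units. Of the 2 red cell miRNAs, miR-451 was detected on all 4 arrays and miR-144 on the first 3, with sums of 1359, 863, 1282 and 265 units. The smooth muscle pair had 2, 2, 2 and 1 members detected, with sums of 3919, 1797, 1516 and 154 units, and the endothelial pair had 2, 1, 1 and 1, with sums of 4429, 236, 234 and 43.3 units. Divided by the percentile of each array, ischemia-reperfusion replicate 2 had the highest sum of 4 lists, the epithelial (0.000468, 0.0146, 0.352 and 6.48), fibroblast (0.592, 0.369, 0.341 and 2.49), red cell (0.402, 0.737, 1.29 and 2.88) and smooth muscle lists (1.16, 1.53, 1.52 and 1.67). It had neither the highest nor the lowest scaled sum of the leukocyte (0.286, 4.23, 4.13 and 0.359) and endothelial lists (1.31, 0.201, 0.235 and 0.471). The scaled sum of the 5 muscle miRNAs was 62.7, 96.6, 91.1 and 0.126. The part of the makeup of cells and of array brightness in the muscle miRNA differences was not tested.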

How the data were processed

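Total RNA was labelled with Cy3 per the labels' protocols and, per the submitters' processing notes, the scanner software was Agilent Feature Extraction 9.5.3. Per the file headers, the deposited files hold each miRNA's total signal intensity, its error and a detection flag. The intensities are linear, include values below 0 and are not scaled between arrays. In the deposited value table, 0 of 1400 miRNA intensities differed from the scanner files. Its column medians, control features left out, were 10.5, 8.79, 6.62 and 2.85 units (sham 1 and 2, ischemia-reperfusion 1 and 2). It is linear and uncentred, with no direction of its own. The sources used here name no array design, slide or scan date.

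From these, 22 control features were left out and 1 versioned name was joined. For scaling, signals were divided by the 75th percentile of their array, taken over the 78 miRNAs with detection on all 4 arrays. Scaled values under the lowest detected scaled signal (0.00157) were raised to that value before taking log2. The 159 miRNAs detected on both arrays of a group were tested with limma 3.58.1 (R 4.3.3), two-sided, with a threshold of 0.05 on the Benjamini-Hochberg adjusted p. The script was tested on simulated data. The number of arrays limits the precision.

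The members and lists were chosen with earlier results of these data known. All 5 members are named, with the 5 nearest other miRNAs and 6 markers (miR-21, miR-205, miR-200c, miR-126, miR-378 and miR-208). Other miRNAs, such as miR-340-5p, miR-223 and the listed miRNAs not detected, were named after their values were seen. All 5 members matched a RefSeq mature sequence. Alternatives were other scalings, filters, floors and variance models, a replicate block and leaving out each array. Leaving out miR-205 and miR-200c, and leaving out ischemia-reperfusion replicate 1 with undetected signals at the limit of their own array, were added after seeing the data.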

Additional observations from a re-analysis of the deposited data

How the results depend on the processing

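Of 17 alternatives per miRNA, the differences of miR-1 and miR-499 stayed negative in 17, and those of the other 3 in 16. Without ischemia-reperfusion replicate 2 these turned to 0.34 (miR-133a), 0.62 (miR-133b) and 0.13 (miR-206). Several of the 17 could not move a difference, so their unchanged sign is no separate evidence. They are testing without a filter, other variance models, the replicate block, leaving out miR-205 and miR-200c, and the deposited value table with its identical intensities. Leaving out 1 array in turn moved the log2 difference of miR-1 from −10.28 to −0.99, of miR-133a from −10.56 to 0.34, of miR-133b from −11.20 to 0.62, of miR-206 from −5.67 to 0.13 and of miR-499 from −4.67 to −0.40. It moved the median of the 5 from −10.28 to 0.13, and limma's calls over all tested miRNAs from 0 to 11. The lone array left in a group was assumed to vary like the other group. The 11 calls without ischemia-reperfusion replicate 1 became 0 with undetected signals at the limit of their own array, an alternative added after seeing the data, with 40 at an unadjusted p under 0.05. Without scaling, 2 miRNAs were called, miR-1 (−7.93) and miR-133b (−8.01), in a fit that gave all 5 the same pooled SE. The differences of miR-206 (−5.49) and miR-499 (−4.37) were larger by over 1.5 times. Leaving out the scaling shifts each log2 difference by the same amount, apart from miRNAs that the floor raises. The limma adjusted p ran from 0.0189 to 0.997 for miR-1 and miR-133b, from 0.0445 to 0.997 for miR-133a, from 0.0482 to 0.997 for miR-206 and from 0.0944 to 0.997 for miR-499. Leaving out miR-205 and miR-200c, an alternative added after seeing the data, gave 0.816 for all 5.

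With the replicate number as a block, limma called 0 miRNAs, and 13 at an unadjusted p under 0.05 against 2 without it. For miR-1 the log2 difference with the replicate block was −5.64 with an adjusted p of 0.519. The numbers share no stated litter or day, and the deviations of same-numbered arrays had a correlation of 0.097 over the tested miRNAs. With undetected miRNAs at the limit of their own array, the differences of miR-133a (−3.19) and miR-499 (−1.57) were smaller by over 1.5 times. With only miRNAs detected on all arrays, 78 could be tested and none of the 5 was among them. In the ratio to miR-133b, quantile normalization turned the difference of ischemia-reperfusion replicate 1 from the sham mean from −1.62 to 0.35 for miR-1 and from −0.28 to 0.34 for miR-133a, and moved it from −0.50 to 0 for miR-206 and from −1.02 to −0.55 for miR-499. Leaving out 1 sham replicate moved this difference from −0.54 to −0.03 for miR-133a, from −3.27 to 0.04 for miR-1, from −0.98 to −0.01 for miR-206 and from −2.25 to 0.21 for miR-499. An undetected miRNA is bounded less tightly on ischemia-reperfusion replicate 2, where the lowest detected scaled signal was 0.0224 against 0.00157 to 0.00239 on the others.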
